A study of Mus musculus with 6 samples.

Results

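Mitotic cyclins, the kinases that work with them, the mitotic exit factor Cdc20, the topoisomerase Top2a and the spindle protein Hmmr were examined in bulk-seq of the spinal cord at postnatal day 4. These 10 genes were chosen by name with their values in the same libraries known, that is, with their FPKM in each library and their difference between the groups in view, so their differences are given as a description with no test. All 10 were found, among 25576 genes listed in at least 1 library. The control mice were heterozygous for the mouse Smn knockout (mSmn+/-, hSMN22tg/0) and the SMA mice lacked mouse Smn (mSmn-/-, hSMN22tg/0), both on the FVB strain, and both groups carried the human SMN2 transgene. There were 3 libraries in each group. The study's methods give triplicates with n = 1 per group, so the replicates may be technical and the p-values below measure only the spread between these libraries. Values are given in the order of replicates 1, 2 and 3. Each is an FPKM, the number of fragments scaled to the length of the transcript and to the fragments mapped in the library.

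A cell enters mitosis when Cdk1, bound to cyclin A or cyclin B, becomes active, and the Aurora and Polo-like kinases then act on the spindle, the centrosomes and the chromosomes. The anaphase-promoting complex (APC/C) with Cdc20 marks cyclin B for destruction, and the cell leaves mitosis. The transcripts of these genes rise from S phase to mitosis and are scarce in cells that have stopped dividing, such as neurons, while glial precursors and endothelial cells of the newborn cord still divide.

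Smn1, the knocked-out gene, had 10.4, 8.64 and 11.9 FPKM in the control libraries, against 8.48, 9.30 and 11.1 FPKM in the SMA libraries. The groups overlapped, so this gene does not check the labels, and every direction below rests on libraries labelled SMA and control. Control replicate 2 stood apart from the rest. Its lowest and highest Pearson correlations of log2(FPKM + 1) with another library, across genes, were 0.836 and 0.849, while the lowest among the other 5 libraries was 0.983. Results are therefore given with and without it. Depth in reads is unknown, and the most frequent ratio between low values put the depth relative to SMA replicate 1 at 1.16, 1.09 and 1.03 in the control libraries, and at 1.01 in both SMA replicates 2 and 3.

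The libraries held markers of spinal cord. Summed over 11 Hox genes of cord position, the level was 243, 177 and 347 FPKM in the control libraries and 277, 271 and 287 FPKM in the SMA libraries, with Hoxb8 the most abundant at 89.4, 59.0, 105, 116, 104 and 113 FPKM in the same order. Summed over 12 neuronal markers it was 2513, 1979 and 2926 FPKM in the control libraries and 2803, 2865 and 2974 FPKM in the SMA libraries, with Meg3 the most abundant at 675, 812, 978, 917, 882 and 945 FPKM. With control replicate 2 left out, 4 of these 12 were higher in every SMA library than in both control libraries, and 0 were lower. The shares of all genes were 14.2% and 13.9%. Both lists were lowest in control replicate 2, which also had high levels of markers of other cells.

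In control replicate 2, all 18 hepatocyte markers were at their highest. Their summed level was 31886 FPKM there, against 111 and 82.2 FPKM in control replicates 1 and 3 and 72.2, 133 and 76.7 FPKM in the SMA libraries. Albumin (Alb), the most abundant, was at 15894.5 FPKM in control replicate 2 and at 44.6, 30.7, 24.6, 56.2 and 30.5 FPKM in the others. No hepatocyte marker was at 0 in any library. Of 16 erythroblast markers, 15 were found (Ahsp was in none of the files), and all 15 were highest in control replicate 2. The erythroblast sum was 1867, 18946 and 1183 FPKM in the control libraries and 1116, 1720.1 and 1334 FPKM in the SMA libraries, and most of it was haemoglobin. Hbb-bs, the most abundant, was at 661, 7026 and 433 FPKM in the control libraries and at 424, 694 and 587 FPKM in the SMA libraries. The 12 neutrophil and myeloid precursor markers summed to 13.9, 483 and 9.65 FPKM in the control libraries and to 6.92, 9.03 and 9.77 FPKM in the SMA libraries. Their most abundant gene, S100a8, was at 4.99, 205, 3.22, 2.25, 2.17 and 3.75 FPKM, and Elane, Ctsg and Fcnb were at 0 in at least 1 library other than control replicate 2. Erythroblasts, myeloid precursors and neonatal liver divide, and the mitotic genes were also highest in this library. The part of these cells in the level of the mitotic genes was not tested.

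The 10 mitotic genes summed to 45.1, 132 and 38.1 FPKM in the control libraries and to 35.3, 22.5 and 29.0 FPKM in the SMA libraries. All 10 were highest in control replicate 2, at 2.15 to 3.81 times the next highest library (median 2.92). The share of all genes that were highest in that library was not counted. In 9 of 10 the lowest library was SMA replicate 2, and Aurka was lowest in SMA replicate 3. Without control replicate 2, control replicate 1 was the highest library for 8 of 10 genes, control replicate 3 for Hmmr and SMA replicate 1 for Cdc20. In bulk tissue, fewer dividing cells and less of these RNAs per cell cannot be told apart.

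**Figure D1:**
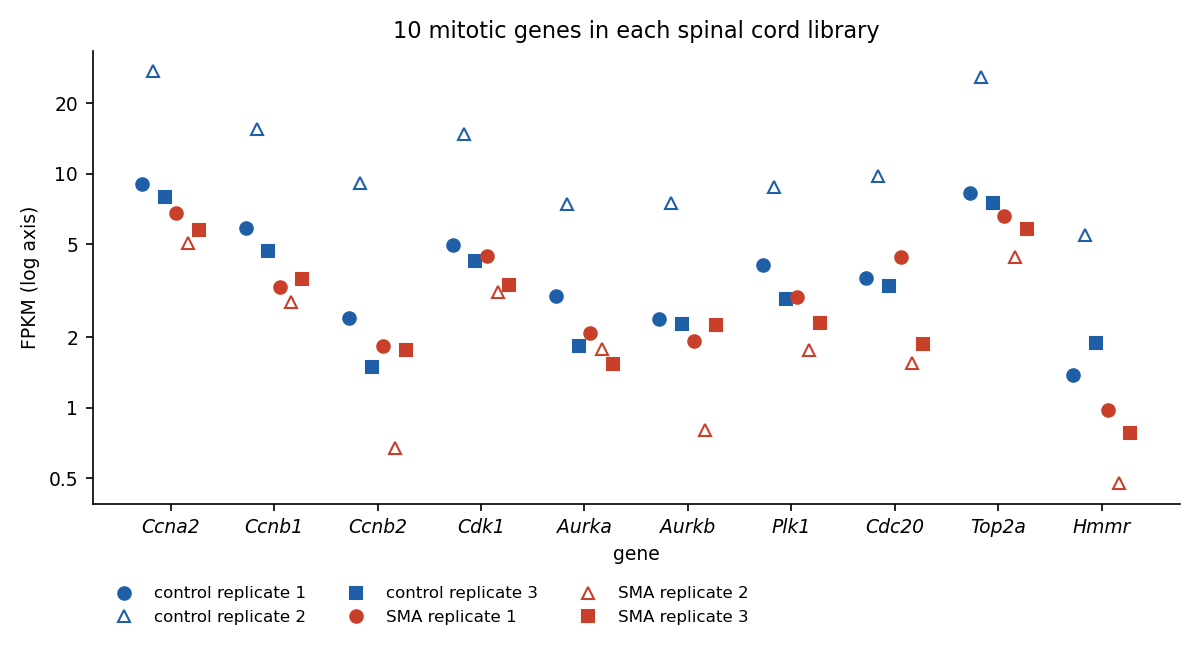
FPKM of the 10 mitotic genes (log axis) in each of the 3 control and 3 SMA libraries, 1 point per library. Control replicate 2 (open blue triangle) lies above all other libraries for each gene, and SMA replicate 2 (open red triangle) is the lowest for 9 of 10.

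Among the cyclins, Ccna2 encodes cyclin A2, the partner of Cdk2 in S phase and of Cdk1 at entry into mitosis. Ccna2 (ENSMUSG00000027715) was at 9.03, 27.4 and 7.93 FPKM in the control libraries and at 6.78, 5.05 and 5.74 FPKM in the SMA libraries, the highest mean of the 10 genes (10.3 FPKM). Every SMA library lay below every control library, and this also held when control replicate 2 was left out. Its log2 fold change of FPKM + 1, SMA over control, was -1.002 (standard error 0.43) over 6 libraries and -0.47 (standard error 0.13) without control replicate 2. On chromosome 3 the files give Ccna2 the span from 36552606 to 36572150 (mm10, the same coordinates as GRCm38), while GENCODE M21 starts it at 36564865. The longer span takes in Exosc9, which overlaps the end of Ccna2 on the other strand. Exosc9, a subunit of the RNA exosome, was at 11.4, 7.93 and 12.9 FPKM in the control libraries and at 11.5, 12.6 and 12.7 FPKM in the SMA libraries, and so was lowest where Ccna2 was highest. Whether the FPKM step used strand is not given in the sources used here.

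Ccnb1 encodes cyclin B1, the main activator of Cdk1 in mitosis (chr13:100778650-100786570, minus strand). Its level was 5.88, 15.6 and 4.69 FPKM in the control libraries and 3.30, 2.85 and 3.56 FPKM in the SMA libraries. The SMA libraries lay close together (SD 0.359 FPKM, n = 3), and all 3 were below all 3 control libraries, with or without control replicate 2. For Ccnb1 the log2 fold change was -1.04 (standard error 0.38) over 6 libraries and -0.57 (standard error 0.14) without control replicate 2, and after Hmmr this was the lowest of the 10 without that library. Ccnb2 encodes cyclin B2, which is found at the Golgi and is less abundant. Ccnb2 was at 2.41, 9.18 and 1.496 FPKM in the control libraries and at 1.84, 0.672 and 1.77 FPKM in the SMA libraries. Here the groups overlapped, since control replicate 3 was below SMA replicates 1 and 3. Its ratio of control replicate 2 to the mean of control replicates 1 and 3 was 4.70, the highest of the 10 genes, and its log2 fold change moved from -0.91 (standard error 0.53) to -0.30 (standard error 0.26) without control replicate 2. The pseudogene Ccnb2-ps was listed at 0.0281 FPKM in SMA replicate 1 and 0.0981 FPKM in SMA replicate 2, and at 0 in the other 4 libraries. Fragments shared by Ccnb2 and this copy could be assigned to either.

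Cdk1, the catalytic partner of these cyclins (chromosome 10, 69336635 to 69352938), was at 4.98, 14.7 and 4.25 FPKM in the control libraries and at 4.45, 3.14 and 3.35 FPKM in the SMA libraries. SMA replicate 1 lay between control replicates 1 and 3, so the groups overlapped. Among the 5 libraries without control replicate 2, Cdk1 had the smallest ratio of highest to lowest value, 1.59, and Hmmr the largest, 3.96. For Cdk1 the log2 fold change was -0.78 (standard error 0.41), and without control replicate 2 it was -0.28 (standard error 0.16).

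Of the other mitotic kinases, Aurka encodes Aurora A, which acts at centrosomes and spindle poles, and Aurkb encodes Aurora B, the kinase of the chromosomal passenger complex at centromeres and the midzone. Aurka was at 2.99, 7.47 and 1.83 FPKM in the control libraries and at 2.09, 1.79 and 1.55 FPKM in the SMA libraries. SMA replicate 1 was above control replicate 3. Its log2 fold change, -0.71 (standard error 0.38) over 6 libraries and -0.27 (standard error 0.18) without control replicate 2, was the smallest in size of the 10 genes in both fits. This rank depends on the 1 added to FPKM. With 0.1 added instead, over 6 libraries, Cdk1 (-0.90) was smaller in size than Aurka (-0.91). Aurkb was at 2.39, 7.54 and 2.29 FPKM in the control libraries and at 1.92, 0.801 and 2.26 FPKM in the SMA libraries. The groups did not overlap, but SMA replicate 3 was nearly level with control replicate 3, and SMA replicate 2 was far below both. For Aurkb the log2 fold change was -0.82 (standard error 0.42) and, without control replicate 2, -0.37 (standard error 0.25).

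Plk1 encodes Polo-like kinase 1, which acts in centrosome maturation, at kinetochores and in cytokinesis. Plk1 (chr7:122159439-122169873, plus strand) was at 4.09, 8.80 and 2.92 FPKM in the control libraries and at 2.99, 1.76 and 2.30 FPKM in the SMA libraries. It rose least in control replicate 2, to 2.51 times the mean of control replicates 1 and 3, and SMA replicate 1 was just above control replicate 3. With these values the log2 fold change was -0.81 (standard error 0.34) over 6 libraries and -0.43 (standard error 0.20) without control replicate 2.

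Cdc20 encodes the activator that brings substrates to the APC/C. Cdc20 was at 3.61, 9.77 and 3.31 FPKM in the control libraries and at 4.401, 1.56 and 1.87 FPKM in the SMA libraries. SMA replicate 1 was above both control replicates 1 and 3, while SMA replicates 2 and 3 were below them, and the spread within the SMA group (SD 1.56 FPKM, n = 3) was the widest of the 10 genes. The log2 fold change was -0.81 (standard error 0.43), and -0.39 (standard error 0.30) without control replicate 2. In the files its span on chromosome 4, from 118428093 to 118437352, also covers Elovl1, which meets the end of Cdc20 on the other strand. Elovl1, a fatty acid elongase, was at 6.29, 13.8 and 10.6 FPKM in the control libraries and at 7.78, 6.68 and 6.23 FPKM in the SMA libraries.

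Top2a encodes topoisomerase II alpha, which untangles sister chromatids and is made in dividing cells. Top2a (chr11:98992943-99024189, minus strand) was at 8.29, 25.8 and 7.54 FPKM in the control libraries and at 6.58, 4.43 and 5.83 FPKM in the SMA libraries. The 6 libraries had the same order as for Ccna2, and the groups did not overlap. A log2 fold change of -0.97 (standard error 0.43) resulted, and -0.44 (standard error 0.15) without control replicate 2.

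Hmmr encodes a spindle and centrosome protein that was first described as a receptor for the glycan hyaluronan. Hmmr (chr11:40701395-40733422, minus strand) was at 1.38, 5.46 and 1.89 FPKM in the control libraries and at 0.979, 0.477 and 0.780 FPKM in the SMA libraries, the lowest mean of the 10 genes. All 3 SMA libraries were below 1 FPKM and all 3 control libraries above it. The fold change on the log2 scale was -1.03 (standard error 0.38) over 6 libraries and -0.60 (standard error 0.18) without control replicate 2, the lowest of the 10 genes in the latter. On the scale of FPKM itself, the mean of control replicates 1 and 3 was 2.19 times the SMA mean for Hmmr, and 1.27 to 1.63 times it for the other 9 genes.

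**Figure D2:**
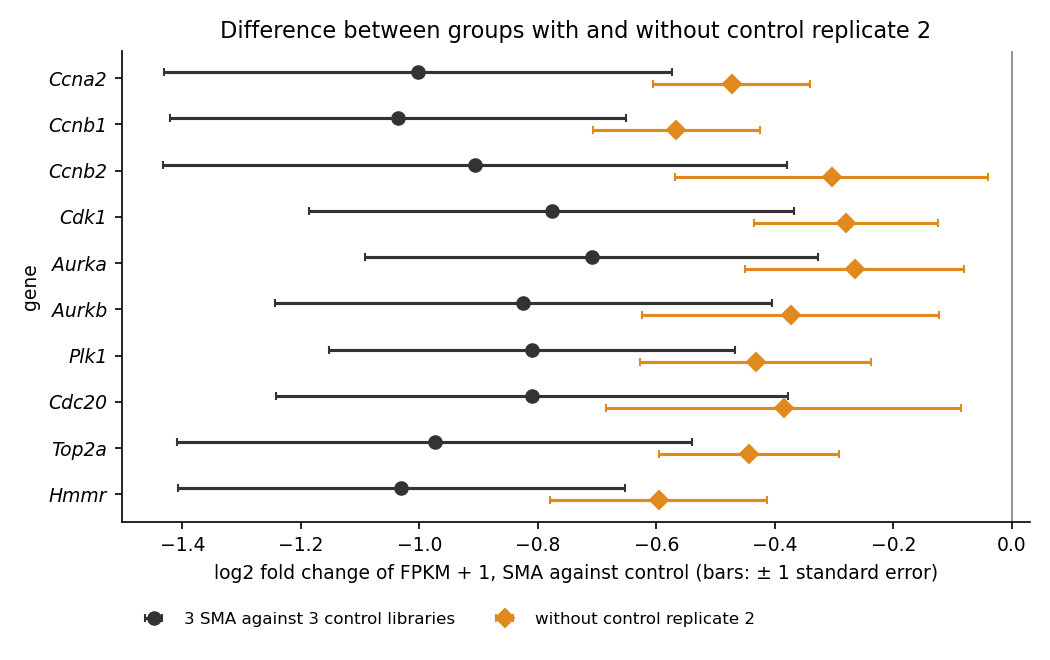
Log2 fold change of FPKM + 1, SMA against control, for each of the 10 mitotic genes (points, with bars of 1 standard error from limma), over 6 libraries and without control replicate 2. All points lie below 0, between -1.04 and -0.71 over 6 libraries and between -0.60 and -0.27 without control replicate 2.

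Over the 10 genes, the median log2 fold change was -0.87 with 6 libraries and -0.41 without control replicate 2, where the median over all genes tested was 0.04 and 0.00. All 10 passed the minimum mean of 0.5 FPKM in both fits. The 3 SMA libraries lay below all control libraries for 5 of 10 genes (Ccna2, Ccnb1, Aurkb, Top2a and Hmmr), and 6.67% of all 17088 genes tested did the same. With control replicate 2 left out it was the same 5 of 10, beside 13.9% of 16574 genes. The members were chosen from this contrast, so nothing is read from these counts. By an unadjusted p under 0.05 in limma, which fits each gene and moderates its variance across genes, 409 of all genes (2.39%) were lower in SMA and 581 (3.4%) higher, which became 565 and 528 with median ratio scaling of the libraries. With a fold difference over 2 as well, 17 (0.0995%) were lower and 12 (0.0702%) higher, which became 12 and 17 with quantile normalization. Leaving out control replicate 2, 862 (5.2%) were lower and 874 (5.27%) higher by p, and 7 (0.0422%) lower and 16 (0.0965%) higher by p and fold. The count lower by p was 712 without control replicate 3, 142 without SMA replicate 2 and 125 without SMA replicate 3, and the count higher was 1032 and 1040 without control replicates 1 and 3 and 238, 255 and 214 without SMA replicates 1, 2 and 3. By p and fold, the count lower was 78 and 131 without control replicates 1 and 3 and 34, 4 and 6 without SMA replicates 1, 2 and 3, and the count higher was 28 without control replicate 1. At an adjusted p under 0.05 (smallest 0.683) limma called 0 genes over 6 libraries, beside the 409 and 581 by unadjusted p. With control replicate 2 left out it called 0 lower and 2 higher, Snora74a and Rpph1, both named after their values were seen.

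The other genes of mitosis were taken from lists of known function. These lists, and those that follow, were chosen with earlier results of these data known. Of 91 genes of the mitotic apparatus (condensins, kinetochore and centromere proteins, spindle motors and cytokinesis factors), 13 were lower in SMA by an unadjusted p under 0.05 and 0 higher, beside 2.39% and 3.4% of all genes. Over the other 5 libraries, 11 of 90 were lower and 1 higher, beside 5.2% and 5.27% of all genes, and 9 genes were lower in both fits. The list median was -0.48 over 6 libraries and -0.20 without control replicate 2. The count lay between 0 without SMA replicate 2 and 36 without control replicate 3, and it was 3 without SMA replicate 1 and 4 without SMA replicate 3. With the replicate number as a block it was 5.

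Mki67, the proliferation antigen Ki-67, was at 4.50, 21.7 and 3.30 FPKM in the control libraries and at 3.29, 2.08 and 2.56 FPKM in the SMA libraries. Cenpa, the histone H3 variant of centromeres, was at 3.44, 15.4 and 5.57 FPKM in the control libraries and at 2.81, 2.64 and 3.27 FPKM in the SMA libraries. Both followed the mitotic genes, with their highest value in control replicate 2 and their lowest in SMA replicate 2. Their log2 fold changes were -1.17 (standard error 0.60) and -1.005 (standard error 0.45), the lowest of the list over 6 libraries, and neither had an unadjusted p under 0.05 there. Without control replicate 2 they were -0.43 (standard error 0.18, unadjusted p = 0.049, adjusted p = 0.475 in limma) and -0.47 (standard error 0.18, unadjusted p = 0.0365, adjusted p = 0.443 in limma), and neither was then the lowest. Cenpw, another centromere protein, was higher in every SMA library than in every control library, with 0.436, 0.674 and 0.555 FPKM in the control libraries and 1.26, 0.858 and 0.923 FPKM in the SMA libraries. Its log2 fold change was 0.37 (standard error 0.17) over 6 libraries, the highest of the list, and 0.43 (standard error 0.16) without control replicate 2, where it was the gene called higher (unadjusted p = 0.0305, adjusted p = 0.437 in limma). The most abundant genes of the list, Zwint, Tubb4b and Ckap5, are also made in neurons. Zwint was at 492, 274 and 444 FPKM in the control libraries and at 428, 470 and 449 FPKM in the SMA libraries, lowest in control replicate 2.

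Among 65 regulators of Cdk1 and the APC/C, 8 were lower by p over 6 libraries, beside 2.39% of all genes, and 6 without control replicate 2, beside 5.2%. All 6 were among the 8, and 0 were higher in either fit. The list median was -0.22 and -0.08. The count was 5 without SMA replicate 1, 2 without SMA replicate 2, 1 without SMA replicate 3, 12 without control replicate 1 and 5 with the replicate block. Ube2c, the ubiquitin-conjugating enzyme of the APC/C, was at 1.94, 14.8 and 2.85 FPKM in the control libraries and at 1.62, 1.42 and 1.78 FPKM in the SMA libraries, and its log2 fold change was -1.11 (standard error 0.59) over 6 libraries and -0.37 (standard error 0.17) without control replicate 2. Cks2, a small subunit of Cdk1 complexes, was at 4.95, 14.4 and 2.09 FPKM in the control libraries and at 2.69, 2.26 and 2.28 FPKM in the SMA libraries. Anapc5, a subunit of the APC/C and the most abundant of the list, was at 105, 109 and 121 FPKM in the control libraries and at 123, 118 and 121 FPKM in the SMA libraries. The groups overlapped for Anapc5. Cdc26, another subunit, singled out after its values were seen, was among the 6 genes, with 17.5, 17.3 and 17.9 FPKM in the control libraries and 14.4, 14.3 and 13.3 FPKM in the SMA libraries. Cdkn1a, the Cdk inhibitor p21, was at 23.1, 15.9 and 19.6 FPKM in the control libraries and at 25.9, 22.4 and 23.5 FPKM in the SMA libraries, and its log2 fold change of 0.29 (standard error 0.15, unadjusted p = 0.0906, adjusted p = 0.683 in limma) was the highest of the list over 6 libraries. It was 0.16 (standard error 0.09) without control replicate 2, and then not the highest.

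Genes of S phase, the step before, were lower by p for 14 of 70 over 6 libraries, beside 2.39% of all genes, and for 11 of 69 without control replicate 2, beside 5.2%, with 10 in both and 0 higher in either. The list median was -0.40 and -0.17. The count was 25 without control replicate 3, 6 without SMA replicate 1, 2 without SMA replicate 2, 3 without SMA replicate 3 and 9 with no minimum FPKM. Tk1, the thymidine kinase of dividing cells, was at 5.34, 19.97 and 3.99 FPKM in the control libraries and at 2.88, 1.39 and 1.67 FPKM in the SMA libraries. Its log2 fold change was -1.58 (standard error 0.53, unadjusted p = 0.0219, adjusted p = 0.683 in limma), and -0.95 (standard error 0.23, unadjusted p = 0.00344, adjusted p = 0.303) without control replicate 2, the lowest of the list in both. Pcna, the sliding clamp of DNA replication, was at 33.4, 53.2 and 29.3 FPKM in the control libraries and at 24.6, 20.9 and 23.8 FPKM in the SMA libraries, and its log2 fold change was -0.67 (standard error 0.22, unadjusted p = 0.0193, adjusted p = 0.683) and -0.42 (standard error 0.09, unadjusted p = 0.00213, adjusted p = 0.29) without control replicate 2. Both genes had all SMA libraries below all control libraries. Dnmt1, the maintenance DNA methyltransferase, was flat at 15.1, 14.1 and 15.1 FPKM in the control libraries and 14.8, 14.3 and 15.5 FPKM in the SMA libraries.

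**Figure D3:**
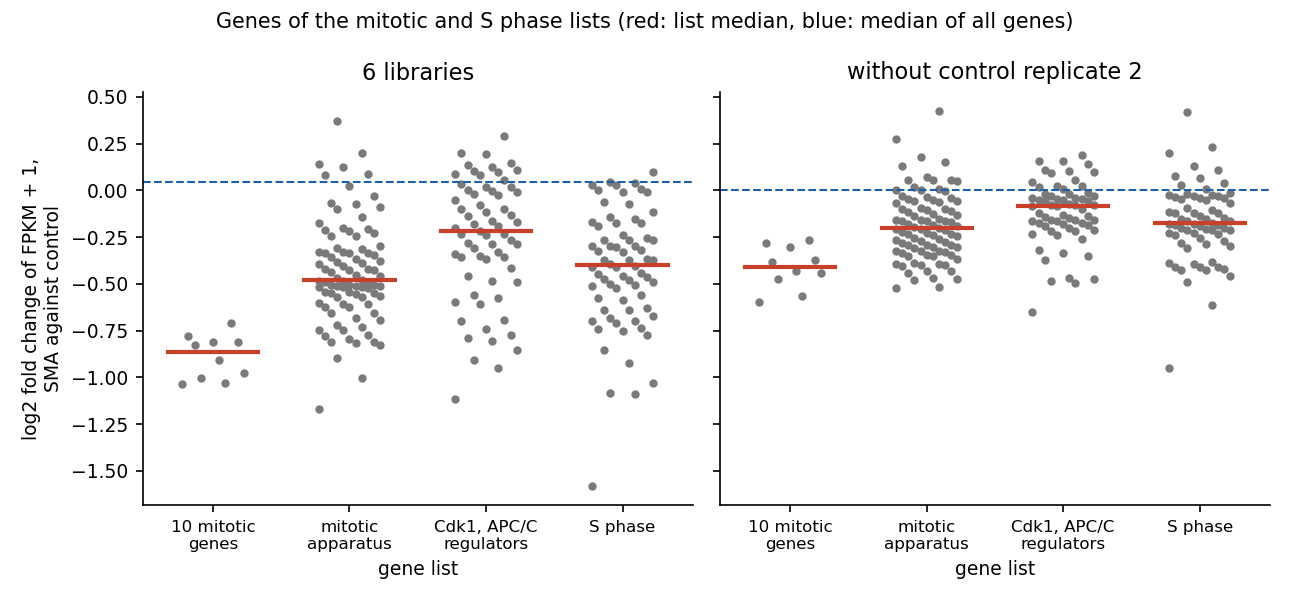
Log2 fold change of FPKM + 1, SMA against control, for each tested gene of the 10 mitotic genes and of the 3 other lists (grey points), over 6 libraries (left) and without control replicate 2 (right). Red lines are list medians (-0.87, -0.48, -0.22 and -0.40 on the left, -0.41, -0.20, -0.08 and -0.17 on the right), and the blue dashed line is the median of all genes tested.

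Among paralogs of the mitotic genes, Top2b, the paralog of Top2a, was at 42.8, 31.3 and 41.4 FPKM in the control libraries and at 43.7, 41.0 and 43.4 FPKM in the SMA libraries, lowest in control replicate 2 where Top2a was highest. Cdk5, the neuronal kinase of the family, was at 25.9, 17.9 and 25.7 FPKM in the control libraries and at 28.5, 28.8 and 29.2 FPKM in the SMA libraries. Cdk4, which acts with D cyclins earlier in the cycle, was at 36.5, 43.5 and 38.7 FPKM in the control libraries and at 36.6, 32.2 and 33.3 FPKM in the SMA libraries. Cdk2, the partner of Ccna2 in S phase, was nearer to the mitotic genes, with 4.58, 8.90 and 3.80 FPKM in the control libraries and 4.11, 3.08 and 3.05 FPKM in the SMA libraries. Cdk6, like Cdk4 a partner of D cyclins, was at 6.78, 9.21 and 4.61 FPKM in the control libraries and at 4.37, 4.46 and 4.24 FPKM in the SMA libraries, highest in control replicate 2 and with no overlap between the groups. Plk4, the kinase of centriole duplication, was at 4.02, 6.51 and 2.76 FPKM in the control libraries and at 2.46, 2.68 and 2.88 FPKM in the SMA libraries. Ccna1, Ccnb3 and Aurkc, the germ line members of these families, were at 0.796 FPKM or less in every library.

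The hyaluronan genes bear on the older name of Hmmr, and 12 were examined, of which 6 were highest in control replicate 2 (Cd44, Lyve1, Stab1, Stab2, Hyal2 and Tmem2). With no share of all genes beside it, nothing is read from this count. Cd44, the main cell surface receptor of hyaluronan, was at 4.59, 6.73 and 2.77 FPKM in the control libraries and at 3.81, 3.50 and 2.15 FPKM in the SMA libraries. The synthase Has2 was at 1.04, 0.865 and 0.650 FPKM in the control libraries and at 0.899, 1.10 and 0.828 FPKM in the SMA libraries, and the synthase Has3 at 2.51, 1.40 and 2.70 FPKM and at 2.95, 2.52 and 2.77 FPKM. Neither synthase was highest in control replicate 2. Stab1, a scavenger receptor of macrophages and sinusoids, was at 3.71, 12.5 and 6.08 FPKM in the control libraries and at 5.25, 2.65 and 2.86 FPKM in the SMA libraries. Stab2, a scavenger receptor of liver sinusoids, was at 19.1 FPKM in control replicate 2 and between 0.0706 and 0.224 FPKM in the other 5 libraries.

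By the root mean square difference of library-centred log2(FPKM + 1) profiles over 6 libraries, the genes closest to the mean of the 10 mitotic genes were Nusap1 (0.079), Hist2h2bb (0.087), Pfkfb1 (0.113), Cpt2 (0.116) and Smc4 (0.118). Nusap1 was at 2.68, 7.11 and 2.06 FPKM in the control libraries and at 1.83, 1.12 and 1.74 FPKM in the SMA libraries. Over the 5 libraries without control replicate 2 the closest were Dynlt1f (0.023), Gata2 (0.052), Anln (0.057), Nusap1 (0.057) and Dusp6 (0.059), and of these 5 Nusap1 alone was also among the closest over 6 libraries. Gata2 was at 1.32, 1.19 and 1.17 FPKM in the control libraries and at 1.02, 0.415 and 0.857 FPKM in the SMA libraries, so that its value in control replicate 2 lay with those of the other control libraries.

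Markers of cell types that could hold dividing cells moved in part with the groups. With control replicate 2 left out, 5 of 10 endothelial markers were lower in all SMA libraries than in both control libraries and 1 was higher, beside 13.9% and 14.2% of all genes. The endothelial markers summed to 66.6, 96.8 and 79.6 FPKM in the control libraries and to 60.0, 48.5 and 53.4 FPKM in the SMA libraries. Cldn5, their most abundant gene and a tight junction protein, was at 25.8, 20.4 and 25.0 FPKM in the control libraries and at 16.4, 15.7 and 14.4 FPKM in the SMA libraries, and it was not highest in control replicate 2. The part of endothelial cells in the difference of the mitotic genes was not tested.

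By their sums, the glial lists differed less. Over the same 5 libraries, 4 of 10 oligodendrocyte precursor markers were lower in all SMA libraries and 0 higher, 2 of 11 markers of astrocytes and radial progenitors lower and 1 higher, and 0 of 10 microglial markers lower and 2 higher, beside the same 13.9% and 14.2% of all genes. The 10 oligodendrocyte precursor markers summed to 401, 286 and 415 FPKM in the control libraries and to 384, 387 and 395 FPKM in the SMA libraries, with Ptprz1 the most abundant at 120, 83.9, 110, 108, 108 and 105 FPKM. The 11 markers of astrocytes and radial progenitors summed to 1522, 1088 and 1434 FPKM and to 1322, 1353 and 1271 FPKM. Their most abundant gene, Fabp7, the fatty acid binding protein of radial glia, was at 626, 395 and 577 FPKM in the control libraries and at 440, 421 and 414 FPKM in the SMA libraries. Its log2 fold change was -0.30 (standard error 0.20, unadjusted p = 0.178, adjusted p = 0.683 in limma) over 6 libraries and, without control replicate 2, -0.50 (standard error 0.07, unadjusted p = 0.000121, adjusted p = 0.176). Aldoc, a glycolytic enzyme of astrocytes, singled out after its values were seen, went the other way, with 222, 138 and 195 FPKM in the control libraries and 232, 267 and 265 FPKM in the SMA libraries. For Aldoc the log2 fold change was 0.48 (standard error 0.19, unadjusted p = 0.042, adjusted p = 0.683 in limma), and 0.29 (standard error 0.09, unadjusted p = 0.0121, adjusted p = 0.366) without control replicate 2. The 10 microglial markers summed to 103, 118 and 105 FPKM and to 104, 106 and 99.6 FPKM. The oligodendrocyte precursor and astrocyte sums were lowest in control replicate 2, and the microglial sum in SMA replicate 3. The part of these cells in the difference of the mitotic genes was not tested.

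**Figure D4:**
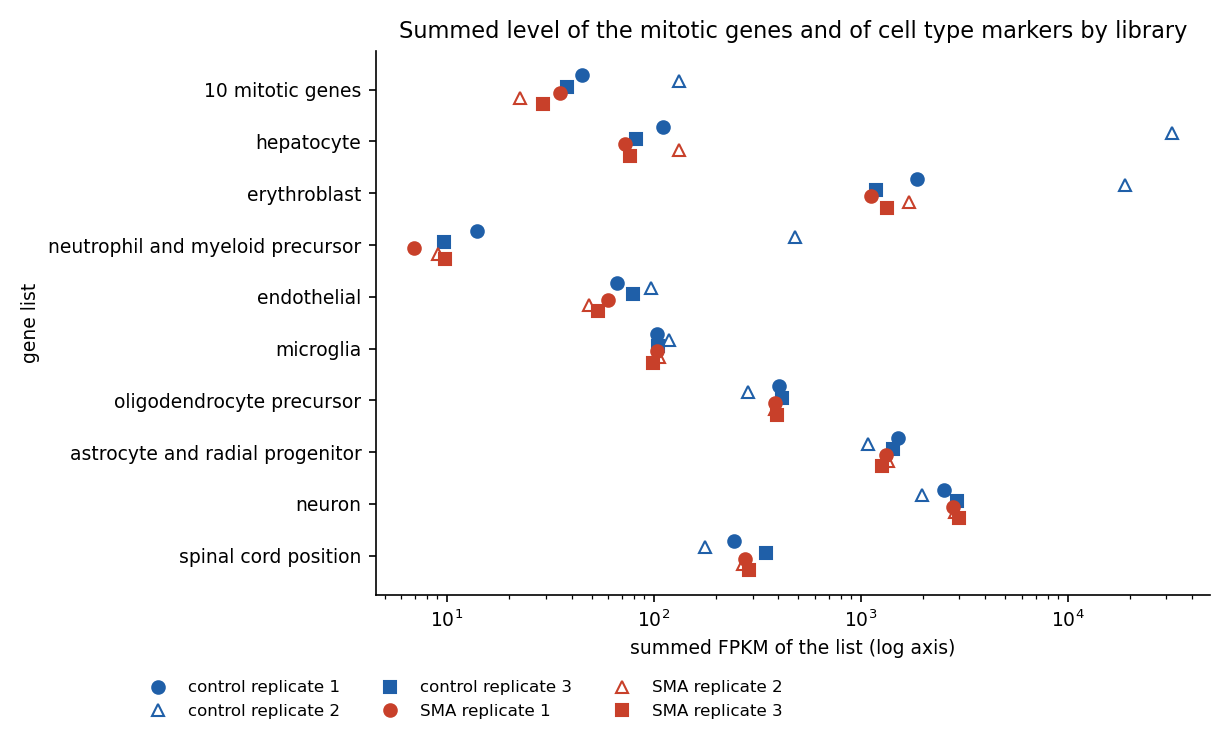
Summed FPKM (log axis) of the 10 mitotic genes and of 9 lists of cell type markers in each library, 1 point per library. In control replicate 2 (open blue triangle) the hepatocyte sum is 31886 FPKM and the mitotic sum 132 FPKM, while the neuronal, glial precursor and Hox sums are at their lowest there.

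The promoters of these genes are shown as a description, apart from the values in the libraries. Promoters of mitotic genes are known for CCAAT boxes, bound by NF-Y, and for the cell cycle genes homology region (CHR), bound by the DREAM and MuvB complexes. RefSeq promoters (GRCm38.p6, 250 bases before to 50 bases after the start site) were matched for 8 of the 10 genes, Ccna2 and Aurkb being the others. The letters CCAAT (the NF-Y box), TTTGAA (the main CHR form) and TTCGAA (another CHR form) were searched on both strands. Of the 8 promoters, 8 held CCAAT, beside 37.4% of all 32851 promoters, 7 held TTTGAA, beside 17.9%, and 1 held TTCGAA, beside 1.56%. No matches overlapped. Counted together, a description added after the data were seen, CCAAT and TTTGAA were both in 7 of 8, beside 6.95% of all promoters, 37 of 83 promoters of the mitotic apparatus list (44.6%), 12 of 61 of the Cdk1 and APC/C regulators (19.7%) and 7 of 67 of the S phase list (10.4%).

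The stretches below run from 120 bases before the start site to 15 bases from it, 5′ to 3′ on the strand of the gene. They are those of Ccnb1, Ccnb2, Cdk1, Cdc20, Top2a and Hmmr, chosen because a TTTGAA match lies in this stretch, with Ccnb1 as the gene that has none, and capitals mark the 3 motifs on either strand (CCAAT reads ATTGG and TTTGAA reads TTCAAA on the opposite strand).
Ccnb1, chr13:100786472-100786606, minus strand: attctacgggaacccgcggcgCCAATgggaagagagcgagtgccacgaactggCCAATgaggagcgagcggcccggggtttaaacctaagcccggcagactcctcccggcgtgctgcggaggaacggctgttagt
Ccnb2, chr9:70421540-70421674, minus strand: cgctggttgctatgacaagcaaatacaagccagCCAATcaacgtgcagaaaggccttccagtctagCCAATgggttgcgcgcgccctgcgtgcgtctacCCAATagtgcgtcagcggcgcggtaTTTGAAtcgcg
Cdk1, chr10:69352898-69353032, minus strand: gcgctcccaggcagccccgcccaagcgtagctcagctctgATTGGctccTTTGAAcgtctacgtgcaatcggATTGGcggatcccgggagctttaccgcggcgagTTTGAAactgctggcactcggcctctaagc
Cdc20, chr4:118437329-118437463, minus strand: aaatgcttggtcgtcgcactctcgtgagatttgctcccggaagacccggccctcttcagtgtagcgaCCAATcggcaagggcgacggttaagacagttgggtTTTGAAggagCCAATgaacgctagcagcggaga
Top2a, chr11:99024175-99024309, minus strand: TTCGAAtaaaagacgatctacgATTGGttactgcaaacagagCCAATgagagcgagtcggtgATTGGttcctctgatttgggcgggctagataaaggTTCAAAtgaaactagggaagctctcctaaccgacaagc
Hmmr, chr11:40733423-40733557, minus strand: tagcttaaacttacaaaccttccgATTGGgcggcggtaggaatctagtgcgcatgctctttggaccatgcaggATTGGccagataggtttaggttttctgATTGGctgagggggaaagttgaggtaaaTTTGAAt

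In Ccnb2 the 3 CCAAT matches began 87, 54 and 21 bases before the start site, and TTTGAA matches began 167 bases before it and at transcribed base 5. In Cdc20 a CCAAT match began 53 bases before the start site, TTTGAA 18 bases before it, and another CCAAT 8 bases before it. Cdk1 had CCAAT on the opposite strand 208, 80 and 48 bases before the start site and TTTGAA 71 and 15 bases before it. Top2a had 6 CCAAT matches, a TTTGAA match on the opposite strand 23 bases before the start site and another 179 bases before it, and TTCGAA 140 and 120 bases before it. Hmmr had 5 CCAAT matches, all on the opposite strand, with TTTGAA at transcribed base 9. Ccnb1, the gene without TTTGAA or TTCGAA in its 300 bases, had CCAAT 99 and 67 bases before the start site. Plk1 and Aurka, not printed, had CCAAT before the start site and TTTGAA at transcribed bases 31 and 33. Positions are counted from the RefSeq start site, which can differ from the gene span given above. The Hmmr span ends at 40733422, so its printed stretch, with TTTGAA, lies wholly upstream of that span. The Ccnb1 span ends at 100786570, so its CCAAT match 67 bases before the RefSeq start site lies inside that span. A match is a description of the letters and not a measured site.

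**Figure D5:**
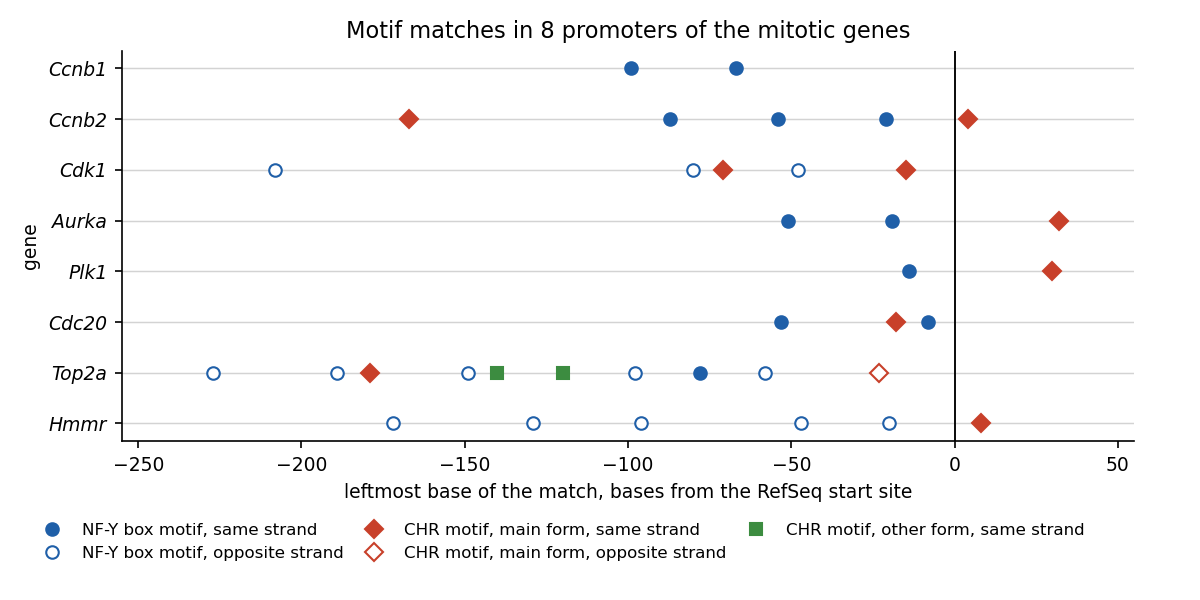
Positions of CCAAT (NF-Y box motif), TTTGAA (CHR motif, main form) and TTCGAA (CHR motif, other form) in the 8 RefSeq promoters, in bases from the start site, filled for the strand of the gene and open for the opposite strand. All 8 promoters hold CCAAT, and 7 of 8, all but that of Ccnb1, hold TTTGAA.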

How the data were processed

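Total RNA of spinal cord was depleted of ribosomal RNA and made into strand-specific libraries. In the deposited files each gene has an FPKM, computed by the authors with Cufflinks on HISAT2 alignments to mm10, as the submitters' processing notes name them. Versions and the annotation release are not given in the sources used here. Loci start from 0 in the files and from 1 here. The read counts that the study's methods describe were not used here.

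A gene absent from a library was set to 0. Values were transformed to log2(FPKM + 1), so that fold changes at low FPKM come out too small. Genes whose mean FPKM reached 0.5 in the libraries fitted were tested with limma 3.58.1 (lmFit, and eBayes with a trend) in R 4.3.3, with no covariate, and two-sided p-values were adjusted by the Benjamini-Hochberg method across every gene tested. The thresholds of the study's methods, p under 0.05 and a fold difference over 2, were applied to the unadjusted p. The procedure was tested on simulated data with independent noise and no library that stood apart. That test therefore does not cover a library such as control replicate 2.

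The 10 genes and all lists (mitotic apparatus, Cdk1 and APC/C regulators, S phase, paralogs, hyaluronan genes and 9 marker lists) were chosen with earlier results of these data known. Named were the 10 genes, from each of the 3 function lists genes among the 3 most abundant and those with the 2 lowest and 2 highest log2 fold changes, any paralog or hyaluronan gene, the most abundant gene of a marker list and the 5 genes closest in profile over 6 and over 5 libraries. Smn1 was named for the design, and genes that overlap or copy a member, such as Exosc9, and further genes, such as Snora74a, were taken after their values were seen. Alternatives were a pseudocount of 0.1, no minimum FPKM or 1, median ratio scaling, quantile normalization, arrayWeights, the replicate number as a block, leaving out each library (control replicate 2 also with median ratio scaling), and the 100 bases nearest the start site for the motifs.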

Additional observations from a re-analysis of the deposited data

How the results depend on the processing

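The log2 fold changes of the 10 mitotic genes were below 0 under all 140 combinations of gene and alternative, from -1.63 (Hmmr with a pseudocount of 0.1) to -0.27 (Aurka without control replicate 2), and since the genes were chosen from this contrast the shared sign is no sign of stability. Their median was between -1.14 without control replicate 3 and -0.41 without control replicate 2, and -0.52 with arrayWeights. Genes lower by p and fold numbered 17, but 125 with a pseudocount of 0.1, 7 with arrayWeights, 35 with the replicate block, 7 without control replicate 2 and with median ratio scaling, and 4 to 131 when each library was left out. Genes higher by p and fold numbered 12, but 64 with a pseudocount of 0.1, and 12 to 28 when each library was left out. Genes lower by p numbered 409, but 619 with arrayWeights, 897 without control replicate 2 and with median ratio scaling, and 125 to 862 when each library was left out. Genes higher by p numbered 581, but 882 with no minimum FPKM, where 25576 genes in place of 17088 were tested, 356 with the replicate block, and 214 to 1040 when each library was left out. When each library was left out, the genes lower by p numbered 0 to 36 in the mitotic apparatus list, 1 to 12 among the Cdk1 and APC/C regulators and 2 to 25 in the S phase list. With the replicate block the first list had 5, the regulators 5 and the S phase genes 10, and with no minimum FPKM the S phase list had 9. Apart from the number of genes tested, the cause of these shifts was not tested. The deviations of same-numbered libraries from their group means had correlations of -0.04, 0.02 and 0.08 across genes. Not every library correlated best with its own number. The control mean includes control replicate 2, which stood apart, so these values cannot decide whether replicate numbers pair the libraries. In the 100 bases nearest the start site, 6 of 8 promoters held CCAAT, beside 13.6% of all promoters, 7 held TTTGAA, beside 4.94%, and 0 held TTCGAA, beside 0.374%. Depth in reads is unknown, so the counting error of low levels such as those of Hmmr and Ccnb2 could not be given.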
